A study of Sus scrofa with 12 samples.

Results

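The genes described here build the contractile apparatus of smooth muscle, the cell type of the muscle coat, the muscularis mucosae and the vessel walls of the gut. A list of 10 genes was taken: ACTG2, ACTA2, TPM2, CNN1, TAGLN, DES, SYNM, MYLK, MYH11 and LMOD1. The list was chosen from results of the same libraries, in which such genes stood out in the comparisons that involve piglets of resveratrol-fed sows, so their levels and differences are given as a description, with no p-value, and counts of them past a standard describe these libraries and test nothing. Rows were taken by gene name, and 7 of the 10 names were found, each as 1 locus, among 17049 different gene names in the deposited table. MYLK was found only under its Ensembl gene identifier, ENSSSCG00000011867, and is given beside the 7, outside their counts and medians. MYH11 and LMOD1 were not matched by name and were not analysed here.

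The libraries are poly(A) RNA-seq of the jejunum of 12 piglets, 3 biological replicates in each of 4 groups. W_Con and PW_Con are piglets of control sows on a corn-soybean basal diet, W_Con taken at 21 days of age, when weaning took place (sucking piglets), and PW_Con at 28 days of age, a week after weaning (weaned piglets). W_Res and PW_Res are the same ages from sows that received 300 mg/kg resveratrol, a plant polyphenol, in the basal diet through gestation and lactation, starting 20 days after breeding. The records give a pool of Landrace boars as sires, cross-fostering within each maternal diet, and weaned piglets that stayed in the nursing pens, whereas the study's methods describe Yorkshire × Duroc litters and a move to a nursing room. The extraction notes speak of an adipose type although the tissue label is jejunum, and epithelial genes were high in every library, as given further on. Every 28-day piglet is both a week older and a week past weaning, so that age and weaning cannot be told apart. No source used here says whether the muscle layers were kept, trimmed or scraped before RNA extraction, or which litter a replicate number stands for. The p-values given for other genes set a difference against the spread between animals within a group, pooled over all 4 groups of 3 animals.

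In smooth muscle, myosin heads pull on thin filaments of actin, and the force is switched on when a calcium-activated kinase phosphorylates the myosin light chain. The thin filaments carry tropomyosin, calponin and transgelin, and desmin and synemin form the intermediate filaments that tie the contractile units together. ACTG2 encodes the actin typical of visceral smooth muscle and ACTA2 the actin typical of vascular smooth muscle, which pericytes and myofibroblasts can also make. The muscle coat drives mixing and propulsion of the gut contents, and whole-wall jejunum therefore holds muscle beside epithelium, lymphocytes and connective tissue.

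Some libraries stood apart before any group was compared. Both W_Res 1 and W_Res 2 were high in nearly all of these genes, while W_Res 3 lay among the remaining libraries, and W_Con 3 and PW_Res 3 were low. Summed over the 7 genes, W_Res 1 reached 2343 FPKM (fragments counted per length of exon and scaled to the mapped fragments, so that levels of different genes can be compared) and W_Res 2 reached 4957 FPKM. The other 10 libraries ran from 184 FPKM in W_Con 3 and 220 FPKM in PW_Res 3 to 781 FPKM in W_Con 2. As a share of all summed FPKM, the 7 genes made up 0.714% in W_Res 1, 1.48% in W_Res 2 and 0.0571% to 0.238% in the other 10 libraries. In a bulk sample, more muscle cells and more of these transcripts per muscle cell cannot be told apart, and this holds for every difference below. Across gene names, replicates of a group correlated with r between 0.881 and 0.961, and genes are not independent replicates. The file holds no counts, so the number of fragments behind a value cannot be read from it. A relative depth estimated from the steps of low values put all 3 W_Res libraries lowest, but it is uncertain by a factor of 2. In W_Res 1, 2 and 3, 14, 8 and 12 loci lay at the estimate. More loci, 15, 10 and 14, lay a factor of 2 above or below it. The same was seen in W_Con 2 (26 and 27 loci) and PW_Con 1 (30 and 36 loci). Whether the W_Res libraries were the lowest in depth therefore cannot be read from it. For its control litters the study gives mapped read totals. Taken in the order of the replicate numbers, these totals follow the estimate closely, W_Con 2 and PW_Con 1 included. The study gives none for W_Res or PW_Res.

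**Figure D1:**
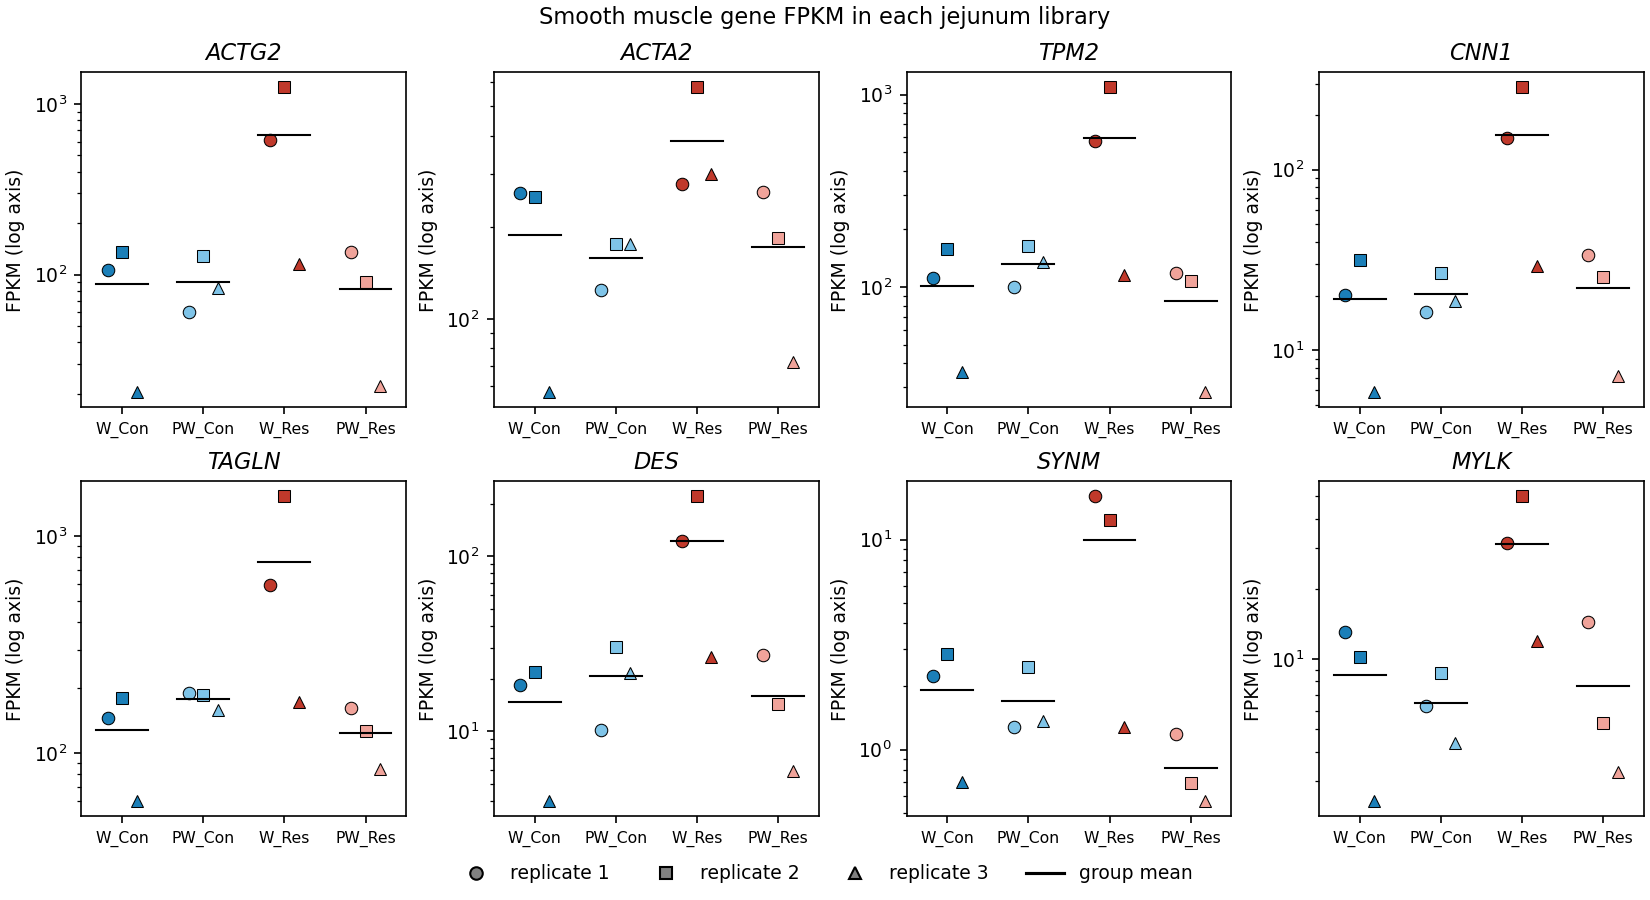
FPKM (log axis) of the 7 genes and MYLK in each library, by group, with marker shapes for the replicate and a line for the group mean. W_Res 1 and 2 lie above the other libraries in every panel except ACTA2, where W_Res 1, at 277 FPKM, is below W_Res 3, at 299 FPKM.

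The actins differed from each other in how far they moved. ACTG2, the visceral actin, stood at 107, 136 and 20.4 FPKM in W_Con 1 to 3, at 60.3, 128 and 83.2 FPKM in PW_Con, at 614, 1248 and 116 FPKM in W_Res and at 135, 89.9 and 22.2 FPKM in PW_Res. Only W_Res 1 and 2 were outside the range of the other groups, and W_Res 3 was below W_Con 2. ACTA2, the vascular-type actin, stood at 259, 252 and 57.4 FPKM in W_Con, at 124, 177 and 176 FPKM in PW_Con, at 277, 577 and 299 FPKM in W_Res and at 262, 184 and 72.0 FPKM in PW_Res. Every W_Res library was above every library of the other 3 groups for ACTA2, but W_Res 1 and 3 by little. Relative to the median of the 10 libraries other than W_Res 1 and 2, ACTG2 was 6.24 times as high in W_Res 1 and 12.7 times in W_Res 2, against 1.53 and 3.20 times for ACTA2.

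The ratio of ACTG2 to ACTA2 therefore set both libraries apart. It was 2.22 in W_Res 1 and 2.16 in W_Res 2, and it lay between 0.308 and 0.722 in the other 10 libraries. In those 10 libraries ACTA2 had the first or second highest level of the 7 genes, and its rank in W_Res 1 and 2 was 4. The coding sequences of the actin genes are similar, and how reads that map to several places were divided is not given in the sources used here. The split between ACTG2, ACTA2 and the cardiac actin ACTC1 is therefore uncertain. ACTC1 itself ran from 3.07 to 18.0 FPKM in 11 libraries and was at 56.2 FPKM in W_Res 2.

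**Figure D2:**
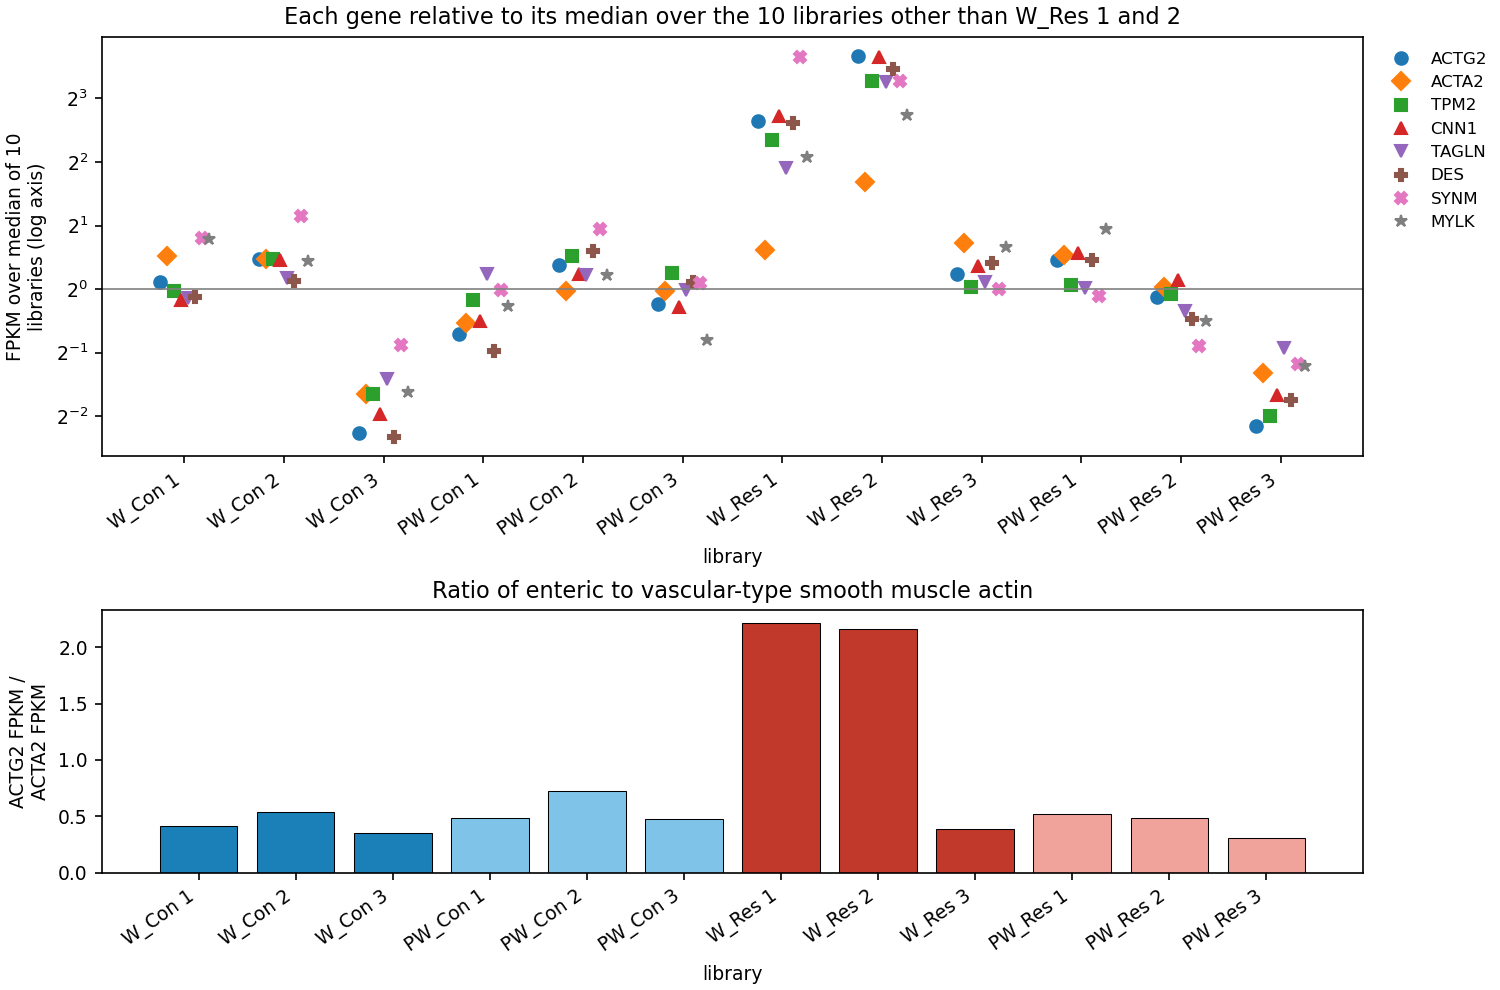
Upper panel, each gene's FPKM in each library divided by its median over the 10 libraries other than W_Res 1 and 2 (log axis, 1 marks that median). Lower panel, FPKM of ACTG2 divided by FPKM of ACTA2, at 2.22 and 2.16 in W_Res 1 and 2 and at most 0.722 elsewhere.

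Among the partners of the thin filament, TPM2 and CNN1 followed ACTG2 more closely than TAGLN did. TPM2, a tropomyosin that lies along the actin filament, stood at 111, 157 and 36.0 FPKM in W_Con, at 99.7, 162 and 134 FPKM in PW_Con, at 571, 1089 and 115 FPKM in W_Res and at 118, 107 and 28.3 FPKM in PW_Res. CNN1, the calponin that restrains the actomyosin motor, stood at 20.3, 31.5 and 5.86 FPKM in W_Con, at 16.2, 26.9 and 18.8 FPKM in PW_Con, at 150, 285 and 29.3 FPKM in W_Res and at 33.9, 25.3 and 7.17 FPKM in PW_Res. For both genes W_Res 3 fell within the range of the other groups, and the lowest libraries were again W_Con 3 and PW_Res 3. TAGLN, an actin-bundling protein that early muscle and myofibroblasts also express, stood at 144, 180 and 59.9 FPKM in W_Con, at 188, 185 and 158 FPKM in PW_Con, at 593, 1525 and 173 FPKM in W_Res and at 161, 126 and 84.2 FPKM in PW_Res. TAGLN had the tightest group of the set, PW_Con, whose highest library was 1.19 times its lowest. TPM4, a tropomyosin of non-muscle cells, was at 128 FPKM in both W_Res 1 and W_Res 2 and between 107 and 222 FPKM in the other libraries, where the ratio of TPM2 to TPM4 ran from 0.162 to 1.52.

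The intermediate filament genes and the kinase stood at lower levels. DES, which encodes desmin, stood at 18.4, 21.8 and 3.99 FPKM in W_Con, at 10.2, 30.4 and 21.6 FPKM in PW_Con, at 122, 220 and 26.7 FPKM in W_Res and at 27.4, 14.4 and 5.96 FPKM in PW_Res. SYNM, which encodes the desmin partner synemin, was the lowest of the 7 in every library, at 2.24, 2.85 and 0.700 FPKM in W_Con, at 1.28, 2.47 and 1.37 FPKM in PW_Con, at 16.1, 12.4 and 1.29 FPKM in W_Res and at 1.19, 0.690 and 0.567 FPKM in PW_Res. It was the only one of the 7 that was higher in W_Res 1 than in W_Res 2, and its lowest libraries were PW_Res 3 and PW_Res 2, both below W_Con 3. MYLK, the myosin light chain kinase, stood at 13.0, 10.2 and 2.45 FPKM in W_Con, at 6.28, 8.74 and 4.34 FPKM in PW_Con, at 31.5, 49.9 and 11.9 FPKM in W_Res and at 14.4, 5.30 and 3.26 FPKM in PW_Res. The MYLK locus may also hold transcripts of the non-muscle form of the kinase, which shares its gene.

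The proportions of CNN1, DES and TPM2 to ACTG2 varied less than their levels. From the lowest to the highest library ACTG2 spanned 61.2 times, yet CNN1 over ACTG2 stayed between 0.191 and 0.323 and DES over ACTG2 between 0.160 and 0.269 in all 12 libraries. TPM2 over ACTG2 stayed between 0.868 and 1.76. TAGLN over ACTG2 was looser, from 0.967 to 3.79, as was SYNM over ACTG2, from 0.00767 to 0.0343, and ACTA2, as above, moved least, with 10.1 times between its lowest and highest library. Measured as the root-mean-square distance of a gene's centred log2(FPKM + 1) values from the mean of the other genes over the 12 libraries, TPM2 was the closest to the rest (0.26), followed by CNN1 (0.31), DES and TAGLN (0.35 each), MYLK (0.40) and ACTG2 (0.42). SYNM (0.58) and ACTA2 (0.74) were farthest.

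By group mean, all 7 genes and MYLK were highest in W_Res, and the order of the other 3 groups differed between genes. The mean of ACTG2 was 659 ± 568 FPKM (SD, n = 3) in W_Res, 90.4 ± 34.3 in PW_Con, 87.8 ± 60.2 in W_Con and 82.5 ± 56.9 in PW_Res. For ACTA2 the means were 384 ± 167 FPKM in W_Res, 189 ± 114 in W_Con, 173 ± 95.5 in PW_Res and 159 ± 30 in PW_Con. W_Con, PW_Con and PW_Res overlapped with each other in every one of the 7 genes, except that for SYNM PW_Res (0.816 ± 0.331 FPKM) lay wholly below PW_Con (1.71 ± 0.662 FPKM). The SD of W_Res exceeded the mean of each of the other groups for every one of the 7 genes except ACTA2.

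The groups were compared on log2(FPKM + 1), a scale that understates the change of low genes such as SYNM. A gene was counted where it met the study's standard of an unadjusted P under 0.05 with a log2 difference beyond 1 in either direction, from 1 limma fit over 12886 gene names, and the share of all gene names that met it is given beside each count. Because the list was chosen from these comparisons, nothing is read from the counts of the 7 against that background. The 5 comparisons share groups, and each one's values are given on their own. The SE of a gene pools the spread within all 4 groups, also in comparisons without W_Res.

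Weaning in control litters, the question of PW_Con against W_Con, showed no member past the standard, where 3.10% of all gene names passed. The log2 differences were 0.36 ± 0.93 (SE) for ACTG2, 0.01 ± 0.59 for ACTA2, 0.59 ± 0.80 for TPM2, 0.33 ± 0.81 for CNN1, 0.60 ± 0.64 for TAGLN, 0.62 ± 0.81 for DES, -0.06 ± 0.62 for SYNM and -0.17 ± 0.63 for MYLK. This SE, which includes the wide spread of W_Res, exceeded the difference for all of these. Whether the spread of W_Con and PW_Con alone would exceed it is not given here. Both groups overlapped in each gene, against 24.9% of all gene names with no overlap in either direction. The median of the 7 differences was 0.36, and that of all gene names -0.01. It became -0.31 without W_Con 3, a library with low levels, and 0.67 in a model with a library-size covariate, of the kind Ballgown fits. Despite its name, that covariate is computed from the FPKM values and is not a count of reads.

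In resveratrol litters the weaned piglets were lower than the sucking piglets in each of the 7 genes. The log2 difference PW_Res minus W_Res was -2.76 ± 0.93 for ACTG2, -2.65 ± 0.81 for DES, -2.53 ± 0.80 for TPM2, -2.48 ± 0.81 for CNN1, -2.17 ± 0.62 for SYNM, -2.16 ± 0.64 for TAGLN and -1.25 ± 0.59 for ACTA2, and -1.90 ± 0.63 for MYLK. All but ACTA2, 6 of the 7, were past the standard in the lower direction, where 4.94% of all gene names passed in either direction and 3.95% in the lower one. With the replicate number as a block in the fit all 7 passed, although these numbers were not taken to pair the animals. Groups without overlap were seen for ACTA2, SYNM and TAGLN, 3 of the 7, against 17.7% of all gene names in this direction. The median of the 7 was -2.48, and that of all gene names -0.15. Without both W_Res 1 and W_Res 2, libraries picked for their high values, the W_Res group is 1 library, W_Res 3. The median was then -0.68, with ACTA2 at -0.97 and SYNM at -0.35, and no count of passing members is given. With the library-size covariate the direction of the median turned, to 0.39, and no member passed. Fewer of all gene names passed in that model as well, as given at the end. Of the 7, 6 turned, among them ACTG2 to 0.71 and ACTA2 to 1.06, while SYNM stayed lower at -0.61. That covariate itself was highest in W_Res 2 and lowest in PW_Res 2. These were also the libraries with the most (12151) and the fewest (10323) gene names at 1 FPKM or more. All W_Res libraries (19512 to 21203) lay above all PW_Res libraries (17640 to 18712) in the covariate, so it and the group cannot be told apart well. It does not stand for depth, as PW_Con 2, with the highest relative depth estimate (1.45), was at 18900.

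At 21 days, piglets of resveratrol-fed sows were higher than those of control sows in each of the 7 genes. The log2 difference W_Res minus W_Con was 2.80 ± 0.81 for DES, 2.72 ± 0.93 for ACTG2, 2.70 ± 0.81 for CNN1, 2.26 ± 0.80 for TPM2, 2.21 ± 0.64 for TAGLN, 1.54 ± 0.62 for SYNM and 1.22 ± 0.59 for ACTA2, and 1.77 ± 0.63 for MYLK. Again 6 of the 7 passed the standard, all but ACTA2, where 4.77% of all gene names passed in either direction and 3.34% in the higher one. With the replicate block all 7 passed here too. ACTA2 and DES, 2 of the 7, showed no overlap between the groups, against 13.8% of all gene names in this direction. The median of the 7 was 2.26, and that of all gene names 0.08. With W_Res 3 as the only W_Res library the median was 0.78, with SYNM at -0.28 and ACTA2 at 0.94. Leaving out W_Con 3 alone, or W_Res 2 alone, left 3 of the 7 past the standard, while 439 and 407 of all gene names passed in those fits in place of 615, and the model with the library-size covariate gave a median of 0.68 with none past it and ACTA2 turned to -0.14.

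At 28 days, no member passed the standard between the maternal diets, where 1.55% of all gene names did. The log2 difference PW_Res minus PW_Con was -0.86 ± 0.80 for TPM2, -0.56 ± 0.64 for TAGLN, -0.56 ± 0.62 for SYNM, -0.46 ± 0.81 for DES, -0.40 ± 0.93 for ACTG2, -0.11 ± 0.81 for CNN1 and -0.05 ± 0.59 for ACTA2, and 0.04 ± 0.63 for MYLK. SYNM was the 1 gene of the 7 without overlap, lower in PW_Res, against 11.8% of all gene names in that direction. The median of the 7 was -0.46, and it was 0.07 without PW_Res 3 and 0.51 with the library-size covariate, where 6 of the 7, all but SYNM, turned to higher in PW_Res.

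Whether the weaning difference depended on the maternal diet was fitted as an interaction, the resveratrol difference minus the control difference. It was -3.27 ± 1.14 for DES, -3.12 ± 1.31 for ACTG2, -3.12 ± 1.13 for TPM2, -2.81 ± 1.14 for CNN1, -2.77 ± 0.91 for TAGLN, -2.11 ± 0.87 for SYNM and -1.27 ± 0.84 for ACTA2, and -1.73 ± 0.89 for MYLK. Of the 7, 6 passed the standard in the lower direction, against 7.76% of all gene names in either direction and 5.95% in the lower one. Their median was -2.81, and that of all gene names -0.15. Without W_Con 3, W_Res 1, W_Res 2, PW_Con 2 or PW_Res 3, leaving out 1 library at a time, 3 of the 7 passed, while 633, 1367, 694, 895 and 847 of all gene names did in place of 1000. With W_Res 3 as the only W_Res library the median was -1.13. With the library-size covariate it was -0.44 and none passed, with ACTA2 turned to 0.84, MYLK to 0.69 and ACTG2 to 0.04.

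**Figure D3:**
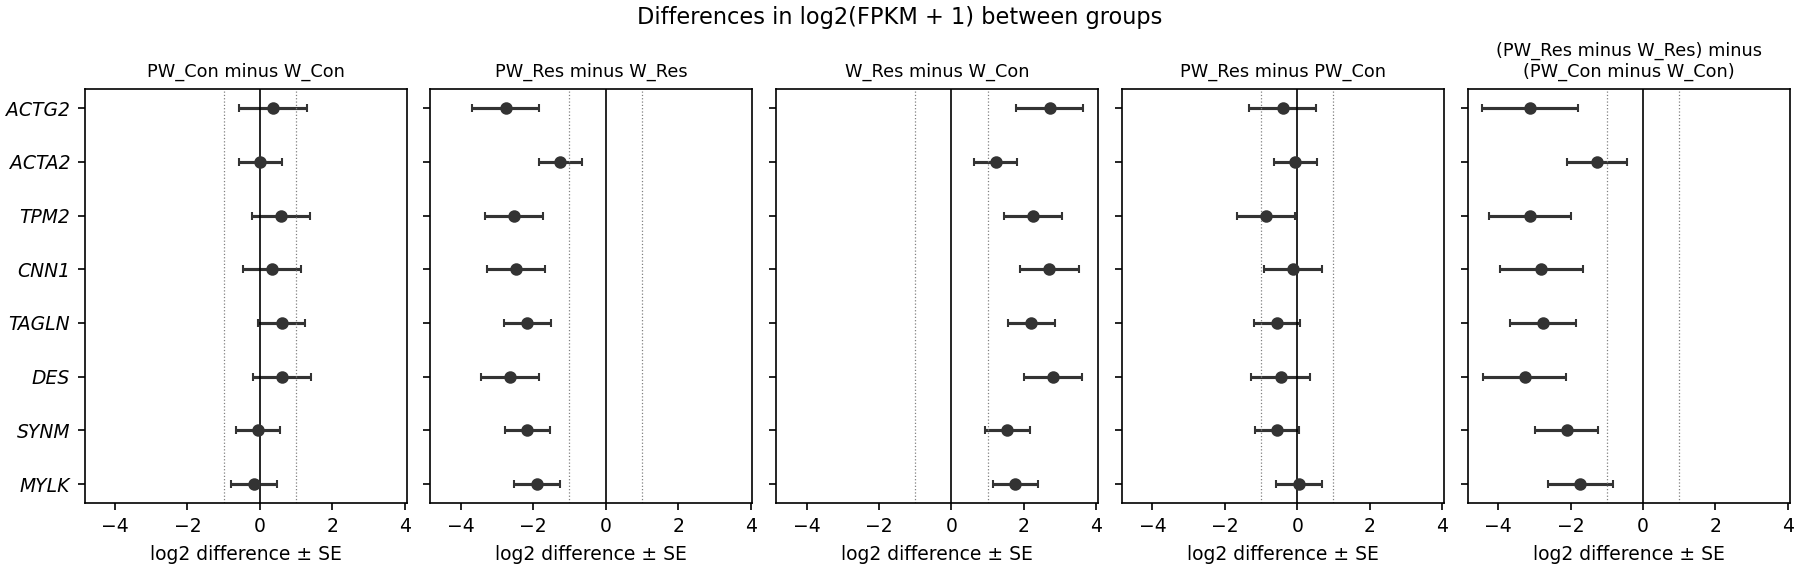
Difference in log2(FPKM + 1) with its SE for each gene in the 5 comparisons, from 1 limma fit over 12 libraries. Dotted lines mark a difference of 1. For the 7 genes, PW_Res minus W_Res runs from -2.76 to -1.25, W_Res minus W_Con from 1.22 to 2.80 and the interaction from -3.27 to -1.27, while both other panels run from -0.86 to 0.62.

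Further genes of the smooth muscle programme were taken from 3 lists that did not enter the choice of the 10. The lists were put together with results of these libraries known. They belong to the same programme and were measured in the same libraries, so their counts are no support independent of the 10. As for the 7, nothing is read from these counts against the shares of all gene names. Of 49 listed genes, 35 were matched and 32 tested. In control litters 0 of the 32 passed the standard at weaning, with 4 at an unadjusted p under 0.05 in limma, where 1974 of all 12886 gene names were, and none at an adjusted p under 0.05. In resveratrol litters 15 of the 32 were past it, all lower in weaned piglets, against 3.95% of all gene names. At 21 days 12 were past it as higher in W_Res than in W_Con, against 3.34% of all gene names, and 1 as lower. At 28 days 0 passed the standard, against 1.55% of all gene names. An unadjusted p under 0.05 in limma was seen for 0 of the 32, against 1000 of all 12886 gene names. The interaction was past it for 11, all lower, against 5.95% of all gene names. The 13 at 21 days became 8 without W_Con 3 or without W_Res 2, and the 11 of the interaction became 7 without W_Con 3 or without PW_Res 3. No gene of the 32 had a Benjamini-Hochberg adjusted p under 0.05 from limma in any of the 5 comparisons, the lowest being 0.19, 0.11, 0.12, 0.66 and 0.25 in the order given. Of all 12886 gene names, 0, 0, 6, 0 and 0 had one, so the absence among the 32 sets them apart from no other genes. The medians of the 32 differences were 0.04, -0.96, 0.82, -0.17 and -1.04. With W_Res 3 as the only W_Res library, that group has no spread of its own, and no counts are given. With the library-size covariate the counts were 1, 2 and 2 for the weaning difference in resveratrol litters, the diets at 21 days and the interaction. Of the 15 in resveratrol litters, 9 turned direction. Fewer of all gene names passed in that model as well, as given at the end.

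The filament and attachment genes held most of those. Of 18 tested, all 18 had a lower fitted mean in PW_Res than in W_Res, where the median difference of all gene names was also below 0, at -0.15. Past the standard were 10, against 3.95% of all gene names in the lower direction, among them MYL9, TPM1, CALD1, SMTN, FLNC, PDLIM3, CSRP1, PGM5 and HSPB6. All of those named but CALD1 were also past it as higher in W_Res than in W_Con. MYL9, the regulatory light chain that MYLK phosphorylates, stood at 41.6, 22.4 and 11.8 FPKM in W_Con, at 37.2, 75 and 56.8 FPKM in PW_Con, at 180, 382 and 60.9 FPKM in W_Res and at 52.6, 40.5 and 7.48 FPKM in PW_Res. Its log2 difference was -2.61 ± 0.76 in resveratrol litters (limma adjusted p = 0.15), turning to 0.094 with the library-size covariate, and 2.80 ± 0.76 at 21 days (adjusted p = 0.12). TPM1, a second tropomyosin gene, stood at 84.4 and 184 FPKM in W_Res 1 and 2 and between 14.2 and 40.5 FPKM elsewhere. FLNC, the muscle filamin, was at 8.59 and 13.6 FPKM in W_Res 1 and 2 and between 1.22 and 4.04 FPKM elsewhere. HSPB6, a small heat shock protein of smooth muscle, shared the library pattern only in part. All 3 W_Res libraries were above the other groups at 15.3, 27.0 and 10.4 FPKM. PW_Res 2 and W_Con 3 were the next highest at 7.79 and 6.70 FPKM, while PW_Res 3 was low at 0.253 FPKM. SGCA and SYNPO2 passed the standard in the interaction only, at -1.39 ± 0.56 and -1.01 ± 0.45 (adjusted p = 0.32 and 0.35), SYNPO2 turning to 0.058 with the library-size covariate. VCL and TLN1, which encode the adhesion proteins vinculin and talin and are made by many cells, did not pass. Their differences were -0.75 ± 0.19 and -0.21 ± 0.22 in resveratrol litters. For VCL only the size of the difference fell short there (limma unadjusted p = 0.0024, adjusted p = 0.13).

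A second list held genes that set the tone of contraction. Of 8 tested, 7 had a lower fitted mean in PW_Res than in W_Res, where the median difference of all gene names was also below 0, at -0.15. KCNMB1, PPP1R14A and TACR2 were past the standard, against 3.95% of all gene names in the lower direction. KCNMB1 was also past it as higher in W_Res than in W_Con and in the interaction. KCNMB1, the smooth muscle subunit of the large-conductance potassium channel, stood at 19.6 and 46.3 FPKM in W_Res 1 and 2 and between 0.613 and 2.28 FPKM in the other 10 libraries. Its log2 difference was -2.55 ± 0.74 in resveratrol litters (adjusted p = 0.15), and 0.0078 with the library-size covariate. TACR2, the neurokinin A receptor, was at 1.55, 6.06 and 3.00 FPKM in W_Res and at 0.164, 0.202 and 0.268 FPKM in PW_Res, a difference of -1.78 ± 0.35 (adjusted p = 0.11). In control litters TACR2 gave -0.83 ± 0.35 (adjusted p = 0.29). RHOA and ROCK1, whose products raise calcium sensitivity in muscle and act in most cells, did not pass, and RHOA was lowest in PW_Con 2 (20.6 FPKM) and W_Res 2 (32.5 FPKM) against 88.1 to 149 FPKM elsewhere.

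Regulators of transcription and RNA made up the last list. Among the 6 tested, 5 had a lower fitted mean in PW_Res than in W_Res, where the median difference of all gene names was also below 0, at -0.15. The RNA-binding proteins RBPMS and RBPMS2 were past the standard, at -1.18 ± 0.32 and -1.07 ± 0.46 (adjusted p = 0.15 and 0.26), against 3.95% of all gene names in the lower direction. RBPMS2 turned to 0.61 with the library-size covariate and to 0.11 with W_Res 3 as the only W_Res library. RBPMS stood at 5.94 and 10.2 FPKM in W_Res 1 and 2 and between 1.35 and 4.24 FPKM elsewhere. FOXF2, a transcription factor of gut mesenchyme, was higher in W_Res than in W_Con by 1.18 ± 0.39 (adjusted p = 0.16), as was RBPMS by 1.04 ± 0.32 (adjusted p = 0.14). MEF2C, a transcription factor of muscle, endothelium and B cells, went the other way at 21 days, at -1.17 ± 0.33 (adjusted p = 0.13), with 4.01, 3.21 and 2.49 FPKM in W_Con and 0.793, 1.67 and 0.362 FPKM in W_Res. SRF, which binds the promoters of contractile genes, did not pass the standard, with -0.30 ± 0.28 in resveratrol litters and 5.24 to 12.9 FPKM over all libraries. Its cofactor gene MKL1 ran from 4.84 to 9.37 FPKM.

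The gene names other than members whose pattern lay closest to the mean of the 7 were sought among 9243 named genes that averaged 1 FPKM or more in the 12 libraries. PYGM, the muscle glycogen phosphorylase, was the closest, with a root-mean-square distance of 0.13 on the log2 scale, and it stood at 32.8 and 52.9 FPKM in W_Res 1 and 2 and between 1.34 and 7.51 FPKM elsewhere. PGM5 (0.28), CPXM2 (0.34) and TPM1 (0.39) were also among the 5 closest. PGM5 and TPM1 were in the lists above.

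Other cell types of the gut wall were measured by lists of marker genes beside these values. Their part in the differences was not tested. In W_Res 1 and W_Res 2 the 7 genes were 3.73 and 7.90 times their median of the other 10 libraries. The 7 fibroblast markers matched of 8 listed were 1.5 and 4.17 times theirs, the 9 of 11 enteric neuron markers 1.44 and 3.08 times, the 4 of 7 endothelial markers 1.15 and 2.00 times and all 4 pericyte markers 1.13 and 1.62 times. The 3 of 4 enteric glia markers, which are low, were 2.67 and 3.65 times their median, the 2 of 3 markers of interstitial cells of Cajal 1.55 and 2.72 times and all 8 lymphocyte markers 0.884 and 1.15 times. For the 8 of 12 epithelial markers the values were 1.06 and 0.577 times, and W_Res 3, at 1.21 times for the 7 genes, had the lowest epithelial sum of the 12 libraries at 0.517 times. In the fibroblast, neuron, Cajal cell, endothelial and pericyte sums W_Res 2 was above all other libraries, but W_Res 1 was not. Fibroblast and Cajal cell sums reached 2.21 and 1.95 times in W_Con 1, neuron sums 1.59 times in PW_Con 3. Pericyte sums reached 1.42 times in W_Res 3, and the endothelial sum of W_Con 2 was also above that of W_Res 1. Only for the low glia markers were both W_Res 1 and W_Res 2 above the other 10 libraries. The muscle, fibroblast, neuron, endothelial and pericyte lists all stood below 1 in W_Con 3, PW_Res 2 and PW_Res 3. The lowest fibroblast sum was in PW_Con 3, at 0.445 times. By group, summed fibroblast markers ran from 212 to 829 FPKM in W_Con, 167 to 388 in PW_Con, 501 to 1566 in W_Res and 235 to 457 in PW_Res. Summed neuron markers ran from 8.24 to 27.7, 15.7 to 28.8, 26.2 to 55.8 and 8.75 to 15.9 FPKM, endothelial markers from 22.7 to 59.1, 40.5 to 47.0, 52.6 to 91.1 and 27.6 to 44.2 FPKM, and epithelial markers from 3997 to 9080, 3868 to 6934, 3192 to 6551 and 5942 to 6541 FPKM, in the same order. None of the defining markers of these lists that was matched was at 0 in all libraries.

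**Figure D4:**
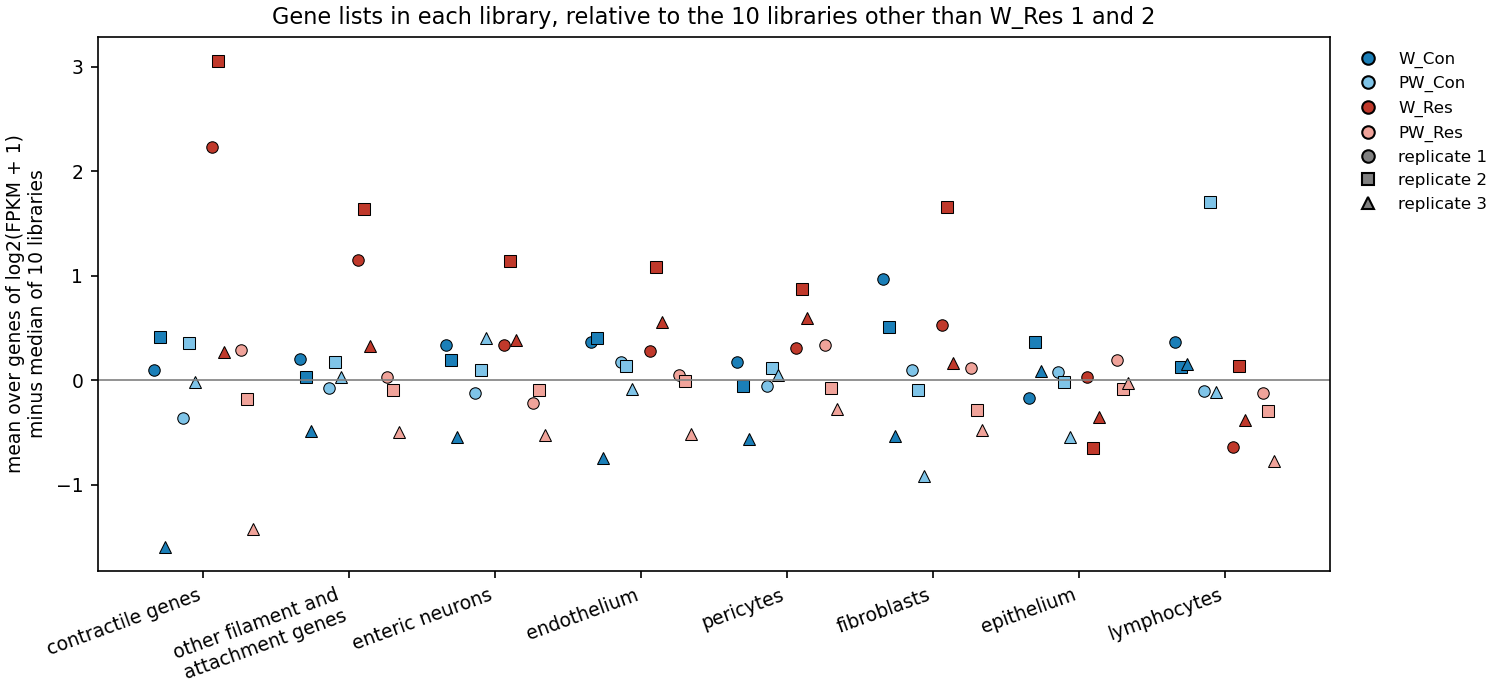
Mean over the genes of a list of log2(FPKM + 1) minus its median in the 10 libraries other than W_Res 1 and 2, 1 point per library, coloured by group and shaped by replicate. Of the 8 lists drawn, the 7 contractile genes spread most. W_Res 2 is also the highest library for the filament, neuron, endothelial, pericyte and fibroblast lists and, by this mean over genes, the lowest for the epithelial list.

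Of 10 markers of striated muscle 6 were matched, and they summed to 3.33 to 18.3 FPKM in W_Con, 8.02 to 12.6 in PW_Con, 18.1 to 60.4 in W_Res and 3.74 to 10.9 in PW_Res. W_Res 1 was 1.96 times and W_Res 2 was 6.09 times the median of the other 10 libraries. Most of the sum was ACTC1, the cardiac actin given above, whose log2 difference PW_Res minus W_Res was -1.85 (past the standard, limma adjusted p = 0.19). ACTA1 reached 4.11 FPKM in W_Res 2 and 0.988 FPKM in W_Res 1, and was at most 0.08 FPKM elsewhere, and MYH2 and MYL2, which encode a fast myosin and a cardiac and slow light chain, stayed at or under 0.0372 FPKM in every library. Epithelial genes were present throughout, with VIL1, which encodes villin of the brush border, at 296 FPKM in W_Res 2 and 545 to 1062 FPKM in the other libraries. FABP6, the bile acid-binding protein that marks distal small intestine, differed widely between libraries of one group. It was at 8055, 1231 and 9.10 FPKM in W_Con, 9621, 8791 and 6518 FPKM in PW_Con, 128, 12.2 and 6146 FPKM in W_Res and 24110, 1.70 and 4.81 FPKM in PW_Res. The libraries with under 200 FPKM of FABP6 held the ones highest in contractile genes, W_Res 1 and 2, and the ones lowest in them, W_Con 3 and PW_Res 3, together with PW_Res 2.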

How the data were processed

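Jejunum RNA of 12 piglets was sequenced as paired-end poly(A) libraries. The deposited table gives FPKM for 41264 loci, made by the authors with StringTie and Ballgown after alignment with TopHat to the Ensembl pig genome. The submitters' processing notes name HISAT2 2.0, Bowtie 0.12.2, StringTie 1.3.0 and the builds Sscrofa10.2 and mm8. Since the gene table at hand is of another pig build, no coordinates are given. No scaling beyond FPKM is stated. The 17650 loci without a name (42.8%) were left out of the tests, and loci sharing a gene name were summed. Of 6232 names that are Ensembl identifiers, 2089 were given a symbol. Absolute depth is not in the file. Steps of the low values gave a relative depth of 0.583 to 0.725 for W_Res and 1 to 1.45 for the other libraries. This estimate rests on 8 to 34 loci per library. From these loci alone it is uncertain by a factor of 2 in all 3 W_Res libraries, W_Con 2 and PW_Con 1, as given above. For W_Con 2 and PW_Con 1 the mapped read totals of the study follow it closely.

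The fit used limma 3.58.1 under R 4.3.3 on log2(FPKM + 1), with a trended eBayes step, 1 fit of 4 group means over 12 libraries, on the 12886 gene names with a mean of 0.5 FPKM or more. P-values were adjusted by Benjamini-Hochberg. The procedure was tested on simulated data. The members and gene lists were chosen with earlier results of these data known. Named genes are the members, other smooth muscle genes past the standard or, otherwise, up to 4 per list with the highest mean FPKM, and the 5 closest patterns, of which some are not reported here. Striated muscle, regional and tropomyosin markers were named after their values were seen. Alternatives were another pseudocount, filter, scaling, locus, trend, set of libraries, a replicate block, a covariate for library size (each library's log2 values added up below their upper quartile) and leaving out libraries. The omission of both W_Res 1 and 2 was chosen after seeing the data.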

Additional observations from a re-analysis of the deposited data

How the results depend on the processing

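The direction of the 7-gene median held under the pseudocount, filter, scaling, trend and locus alternatives in each comparison, and under the 6-library alternative in the 4 where it was run. With the library-size covariate it turned to 0.39 for weaning in resveratrol litters and to 0.51 for diet at 28 days, and was 0.68 for diet at 21 days, -0.44 for the interaction and 0.67 for weaning in control litters. Without both W_Res 1 and 2, which leaves 1 library in W_Res, it was -0.68 for weaning in resveratrol litters, 0.78 for diet at 21 days and -1.13 for the interaction. The cause was not tested. With the covariate 0 members were past the standard in each comparison. Leaving out 1 library at a time, the median ran from -0.31 to 0.86 for weaning in control litters, -3.41 to -1.80 in resveratrol litters, 1.57 to 3.19 at 21 days, -0.77 to 0.07 at 28 days and -3.74 to -2.12 for the interaction, and members past the standard from 4 to 7, 3 to 7 and 3 to 6 in resveratrol litters, at 21 days and for the interaction. Of the other smooth muscle genes, 2 passed for weaning in control litters with a pseudocount of 0.1, 1 with only 6 libraries, 1 with the replicate block and 0 to 1 leaving out 1 library. In resveratrol litters 1 passed with the covariate. At 21 days 2 did, and 8 to 17 leaving out 1 library. For the interaction 6 passed at a minimum mean of 5 FPKM, 2 with the covariate and 7 to 16 leaving out 1. No counts are given without both W_Res 1 and 2, since 1 library is left in W_Res.

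With the covariate, weaning in resveratrol litters reversed to 0.71 for ACTG2, 0.39 for TAGLN, 0.35 for DES, 0.42 for CNN1, 0.26 for TPM2, 1.06 for ACTA2, 0.76 for MYLK, 0.094 for MYL9, 0.24 for TPM1, 0.29 for CALD1, 0.30 for SMTN, 0.29 for PDLIM3, 0.51 for CSRP1, 0.51 for PGM5, 0.0078 for KCNMB1 and 0.61 for RBPMS2, the diet difference at 21 days to -0.14 for ACTA2, that at 28 days to 0.72 for ACTG2, 0.83 for CNN1, 0.70 for ACTA2, 0.51 for DES, 0.27 for TAGLN and 0.05 for TPM2, and the interaction to 0.84 for ACTA2, 0.69 for MYLK, 0.041 for ACTG2, 0.058 for SYNPO2 and 0.16 for PGM5. Without both W_Res 1 and 2, CSRP1 gave 4.6e-05 and RBPMS2 0.11 for weaning in resveratrol litters, and SYNM -0.28 at 21 days.

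Over all gene names, 399, 636, 615, 200 and 1000 passed in the 5 comparisons. A pseudocount of 0.1 gave 783, 1237, 1185 and 456 in the first 4, a minimum of 5 FPKM gave 219, 212, 250, 112 and 364, the covariate gave 234, 311, 119 and 318 in the last 4, and quantile normalization 410 in the second. Median-of-ratios scaling moved the median of all gene names for weaning in resveratrol litters from -0.15 to 0.01. Same-numbered libraries deviated together with r over 0.1 in 5 of 18 pairs (r from -0.26 to 0.30 over the 18), so the numbers were not taken to pair the animals. With the replicate block 7 of the 7 genes passed in resveratrol litters and at 21 days, in place of 6, while 641 and 640 of all gene names did, in place of 636 and 615.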
